A study of Mus musculus with 3 samples.

Results

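The guanylate-binding proteins described here are encoded by Gbp2, Gbp3, Gbp4, Gbp5, Gbp6, Gbp7, Gbp8, Gbp9, Gbp10 and Gbp11. They were chosen by gene symbol and are 10 of the 55536 genes in the deposited gene tables. The study measured total RNA, depleted of ribosomal RNA, from the chromatin fraction of macrophages grown from C57BL/6J mouse bone marrow. The chromatin fraction holds RNA that is still being made or has stayed at the gene. The cells were exposed to Lipid A at 100 ng/ml for 12 hours, kept in washed cultures for 12 more hours, and exposed to the same dose for a final 50 minutes. Lipid A is the fatty end of bacterial lipopolysaccharide, which cells sense through Toll-like receptor 4. All 3 libraries carry this treatment, so the values are levels and no response to the treatment could be measured. The labels name 1 donor for all 3, record neither age nor sex, and do not say whether the libraries came from separate animals or cultures. SDs and p-values therefore measure only the spread between these samples, which may be technical.

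Guanylate-binding proteins are large GTPases of the dynamin superfamily whose genes are induced by interferons. In macrophages they gather on vacuoles that hold parasites or bacteria and on bacteria in the cytosol, and the coats they build feed into caspase-11 and inflammasome signalling. Placement on vacuoles needs the autophagy conjugation machinery and the immunity-related GTPases, a second interferon-inducible family. Some members carry a lipid anchor at the carboxyl terminus, and others rely on partners to reach membranes.

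Interferon-induced genes are known to be switched on through the interferon-stimulated response element, bound by Irf factors, through the gamma-activated site, and through kB sites, bound by NF-kB. Start-site sequences from RefSeq (build GRCm38.p6, 250 bases before the start to 50 after) were matched by symbol for 4 of the 10 members, all on chromosome 3, and for their relative Gbp2b. They are shown because all 4 genes were high in these cells while Gbp2b, which lies between them, was near 0. Capitals mark matches to the cores GAAANNGAA (interferon-stimulated response element), TTCNNNGAA (gamma-activated site) and GGGANNTTC (kB), searched on both strands. The windows, all on the plus strand, are chr3:142496684-142496983 for Gbp5, chr3:142530086-142530385 for Gbp7, chr3:142559794-142560093 for Gbp3, chr3:142620413-142620712 for Gbp2 and chr3:142594597-142594896 for Gbp2b.
Gbp5: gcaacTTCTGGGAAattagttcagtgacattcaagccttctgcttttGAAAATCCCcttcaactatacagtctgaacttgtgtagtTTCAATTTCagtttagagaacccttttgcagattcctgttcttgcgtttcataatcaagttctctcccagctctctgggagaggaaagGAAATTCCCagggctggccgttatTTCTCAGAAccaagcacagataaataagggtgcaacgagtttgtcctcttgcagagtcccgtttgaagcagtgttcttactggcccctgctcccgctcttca
Gbp7: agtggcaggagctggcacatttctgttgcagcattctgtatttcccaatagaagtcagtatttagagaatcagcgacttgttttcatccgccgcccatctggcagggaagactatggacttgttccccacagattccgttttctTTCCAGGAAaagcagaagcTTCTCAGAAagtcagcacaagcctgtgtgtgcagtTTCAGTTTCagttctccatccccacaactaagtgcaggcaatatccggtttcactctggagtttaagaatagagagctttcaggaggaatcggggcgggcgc
Gbp3: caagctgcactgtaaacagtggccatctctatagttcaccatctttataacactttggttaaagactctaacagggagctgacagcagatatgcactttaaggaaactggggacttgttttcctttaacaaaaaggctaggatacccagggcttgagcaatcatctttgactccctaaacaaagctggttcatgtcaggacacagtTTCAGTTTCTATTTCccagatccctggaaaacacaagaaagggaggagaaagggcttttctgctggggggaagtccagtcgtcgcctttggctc
Gbp2: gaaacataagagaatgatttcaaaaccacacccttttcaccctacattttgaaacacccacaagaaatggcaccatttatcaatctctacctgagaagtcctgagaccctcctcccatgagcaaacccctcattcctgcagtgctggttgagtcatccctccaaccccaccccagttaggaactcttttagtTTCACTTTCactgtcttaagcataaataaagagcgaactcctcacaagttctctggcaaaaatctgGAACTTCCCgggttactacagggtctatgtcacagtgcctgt
Gbp2b: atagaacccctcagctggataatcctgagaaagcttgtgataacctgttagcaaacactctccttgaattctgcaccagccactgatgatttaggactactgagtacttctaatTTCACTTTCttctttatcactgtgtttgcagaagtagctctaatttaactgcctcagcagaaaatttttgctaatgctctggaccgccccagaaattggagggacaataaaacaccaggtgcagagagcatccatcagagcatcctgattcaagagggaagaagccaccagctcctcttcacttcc

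The interferon-stimulated response element core was in a window of all 4 members and in that of Gbp2b, each time on the minus strand. Counted from the start base as 0, it lay at -164 to -156 in Gbp5, -52 to -44 in Gbp7, -58 to -50 in Gbp2 and -136 to -128 in Gbp2b. Gbp3 had 2 overlapping matches, at -44 to -36 and -38 to -30, and none in the window of a second Gbp3 start (chr3:142560106-142560405). Of all 32851 mouse promoters in the same table, 8.56% hold this core. Gbp5 and Gbp7 each also held 2 gamma-activated site cores, which 8.30% of promoters hold, and 1.07% hold both kinds. The kB core, in 3.94% of promoters, was found 2 times in Gbp5 and 1 time in Gbp2, in the last case after the start at 8 to 16. A match is a description of these letters and was not tested as a binding site. The start used for Gbp5 lies inside the span that GENCODE annotates for the gene, so other starts exist that these windows do not cover.

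Each library had alignment-based gene and transcript tables and a read-based transcript table, and levels are given as TPM, a relative abundance corrected for effective length, from the alignment-based gene tables unless the read-based ones are named. Expected counts totalled 13897176 in replicate 1, 19597343 in replicate 2 and 19348626 in replicate 3, for starting amounts of 1 µg, 250 ng and 500 ng in the labels. The 3 pairs of libraries differed by 41.6 to 103 in chi-square per degree of freedom, which is more than counting error alone. This measure cannot tell separate samples from repeat libraries of the same RNA. Macrophage identity was checked on 10 markers, all of which were detected, with summed levels of 1051 to 1276 TPM. Of the markers of neutrophils (0 of 6), T and natural killer cells (0 of 6), B cells (0 of 5), dendritic cells (0 of 5), stromal and endothelial cells (1 of 5) and erythroid cells (0 of 4), only the endothelial Kdr was detected. The read-based tables also passed 1 neutrophil marker, 1 T and natural killer cell marker (Cd3d, 15.7 ± 3.18 TPM there and 0 TPM in the alignment-based tables), 1 dendritic cell marker and 2 of the stromal and endothelial list. The stromal and endothelial list summed to 10.2, 5.79 and 3.77 TPM in replicates 1, 2 and 3, and the defining markers Cd3e, Cd79b, Elane and Hba-a1 had 0 TPM in the alignment-based tables. In bulk RNA, fewer expressing cells and less RNA per cell cannot be told apart.

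All 10 members were detected, defined as at least 1 TPM in every library, both in the alignment-based and in the read-based tables. The same held for 20.2% of all genes and 39.2% of protein-coding genes in the alignment-based tables, and for 49.7% of protein-coding genes in the read-based tables. The median member level was 102 TPM, against 0.367 TPM over all 22028 protein-coding genes. Summed over the family, the level was 2202, 1198 and 1600 TPM in replicates 1, 2 and 3, or 1666 ± 505 TPM (SD, n = 3). The members held 0.481% ± 0.161 of all expected counts and 0.766% ± 0.204 of those on protein-coding genes. The family was abundant as a whole, and its genes were far from equal.

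Gbp5 (ENSMUSG00000105504.4, chr3:142493978-142522344, plus strand, mm10), which in mouse macrophages promotes assembly of the NLRP3 inflammasome, stood highest. Its level was 1028, 482 and 637 TPM in replicates 1, 2 and 3, a mean of 716 ± 281 TPM (SD, n = 3) from 27282 to 43586 expected counts. It was the highest member in every library and, at rank 30, lay at the 99.9th percentile of protein-coding genes by level. Gbp5 alone supplied 42.3% ± 3.85 of the family's TPM. The library with the highest value had 2.13 times the level of that with the lowest, and the credible interval deposited for each library spanned 2.52% to 2.69% of its posterior mean. That posterior mean is a separate deposited estimate, and for Gbp5 it lay below the TPM, at 952, 451 and 594 TPM in replicates 1, 2 and 3.

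Gbp6 (chr5:105270702-105293698, minus strand), 1 of the members that coat Toxoplasma vacuoles in mouse cells, came second. It stood at 366, 194 and 356 TPM in replicates 1, 2 and 3, or 306 ± 96.7 TPM (SD, n = 3). Replicates 1 and 3 were alike and replicate 2 was low. Within each library Gbp5 exceeded Gbp6, by 1.21 ± 0.34 on the log2(TPM + 1) scale, a 2.31-fold difference. Together they made up 60.6% ± 3.68 of the family's TPM.

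Below them 6 members lay close together, between 78.6 and 116 TPM. Gbp8 (chr5:105014150-105139540, minus strand) stood at 149, 86.7 and 113 TPM in replicates 1, 2 and 3. Gbp4 (chr5:105115767-105139586, minus strand), reported in mouse cells to restrain the interferon factor Irf7, stood at 140, 109 and 94.5 TPM. Gbp9 (chr5:105077630-105139539, minus strand) had the smallest spread of the family, with 113, 99.9 and 94.7 TPM and a coefficient of variation of 8.99%. In all 3 of these genes replicate 1 was the highest library, and the values of the 3 genes overlapped one another. Gbp2 (chr3:142620602-142638008, plus strand), a lipid-anchored member that controls Toxoplasma in mice, had 120, 80.0 and 105 TPM. Gbp3 (chr3:142560026-142573209, plus strand), which also reaches Toxoplasma vacuoles, had 116, 66.5 and 106 TPM. Gbp7 (chr3:142530342-142550149, plus strand), needed in mouse macrophages for defence against intracellular bacteria, had 99.5, 67.2 and 69.0 TPM. Gbp2 and Gbp3 were lowest in replicate 2 by a clear gap, and Gbp7 was low in both replicates 2 and 3. No neighbouring pair among these 6 differed by more than its SD over libraries. The differences were 0.01 ± 0.30 for Gbp8 over Gbp4, 0.15 ± 0.16 for Gbp4 over Gbp9, 0.02 ± 0.25 for Gbp9 over Gbp2, 0.10 ± 0.14 for Gbp2 over Gbp3 and 0.27 ± 0.32 for Gbp3 over Gbp7, all in log2(TPM + 1).

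The 2 lowest members were Gbp11 and Gbp10. Gbp11 (chr5:105323042-105346472, minus strand), which the annotation calls a polymorphic pseudogene, stood at 35.6, 10.5 and 22.3 TPM in replicates 1, 2 and 3, from 461.4 to 1218 expected counts. The 3 values stood well apart, and their mean was 22.8 ± 12.6 TPM (SD, n = 3). Gbp7 exceeded it 3.66-fold, by 1.87 ± 0.61 in log2(TPM + 1). Gbp10 (chr5:105215699-105239533, minus strand), which in mouse macrophages contributes to defence against Listeria and mycobacteria, stood at 33.2, 1.5 and 1.33 TPM. Replicate 1 alone made its mean of 12.0 ± 18.3 TPM (SD, n = 3), which was 1.42 TPM without that library. The same library decided its place among protein-coding genes, at the 82.5th percentile with all libraries and at 59.5 without replicate 1.

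**Figure D1:**
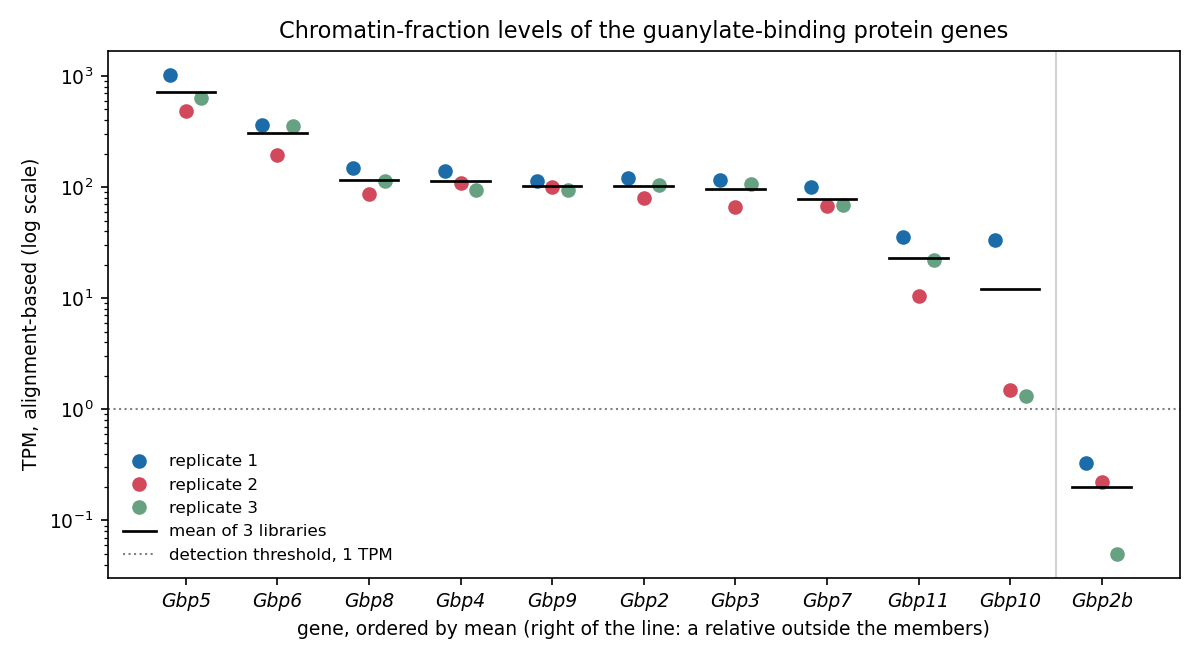
Levels of the 10 members and of the relative Gbp2b in TPM (log axis), with 1 point per library, the mean of 3 libraries as a bar and the detection threshold of 1 TPM as a dotted line. Gbp5 lies highest at 482 to 1028 TPM, 6 members lie close together between 66.5 and 149 TPM, and replicate 1 is the highest point of every member.

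The order of the top and bottom of the family was the same in every library: Gbp5 was the first, Gbp6 the second, Gbp11 the ninth and Gbp10 the tenth. Gbp11 exceeded Gbp10 by 1.87 ± 1.64 in log2(TPM + 1), but only by 0.10 in replicate 1. Of all 45 pairs of members, 36 kept 1 order in all 3 libraries, but of the 15 pairs among the 6 close members only 6 did. For the 4 neighbouring pairs at the top and bottom, which had 1 sign in 3 of 3 libraries, an exact two-sided sign-flip permutation test over libraries gave p = 0.25 each (adjusted over the 9 neighbouring pairs 0.562). This is the smallest p that 3 libraries allow, so no pair could pass 0.05. With CPM, which carries no length correction, Gbp8 lay below Gbp4, by -0.69 ± 0.19 in log2, in 3 of 3 libraries, and the read-based tables gave -0.63 ± 0.33 for the same pair.

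2 further annotated genes bear a Gbp symbol. Gbp2b (chr3:142594847-142619179), the founding mouse gene of the family, had 12, 10 and 2 expected counts in replicates 1, 2 and 3, which is 0.330, 0.220 and 0.05 TPM. It lay between Gbp3 and Gbp2, which averaged 96.3 and 102 TPM. Its start-site window holds an interferon-stimulated response element core, as those of its neighbours do. The pseudogene Gbp2-ps had 0 expected counts in all 3 libraries, which allows up to 3 counts in each (counting error only).

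The 4 members on chromosome 3 lie head to tail on the plus strand within 144 kb, and the 6 on chromosome 5 lie on the minus strand within 332 kb. The chromosome 3 cluster summed to 1364, 696 and 917 TPM in replicates 1, 2 and 3, and the chromosome 5 cluster to 837, 502 and 682 TPM. The chromosome 3 sum was higher in each of the 3 libraries, by 0.53 ± 0.15 in log2(TPM + 1), a 1.45-fold difference (exact two-sided sign-flip permutation test, p = 0.25, the smallest possible). Without Gbp5 the chromosome 3 sum was 2.42-fold lower than that of chromosome 5, a difference of -1.27 ± 0.04 that varied little between libraries. Counting only transcripts annotated as protein-coding, the difference was 1.62 in log2, more than 2 times the fold with all transcripts. That value depends on the transcripts annotated for each gene. Gbp2, Gbp3 and Gbp7 on chromosome 3 have no annotated retained-intron transcript, and Gbp11 on chromosome 5 adds 0 TPM to this count.

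**Figure D2:**
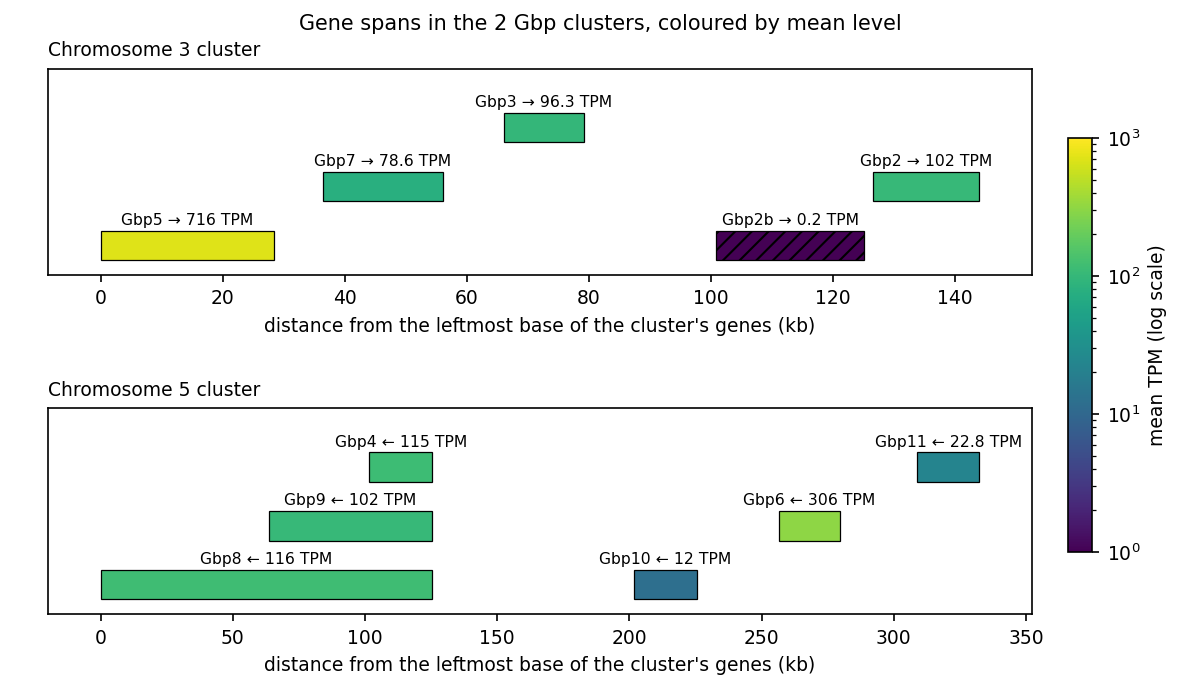
Gene spans in the chromosome 3 and chromosome 5 clusters, by distance in kb from the leftmost base of each cluster, coloured by mean TPM of 3 libraries on a log scale; arrows give the strand, and Gbp2b, hatched, is no member and lies below the colour scale. The highest gene, Gbp5 (716 TPM), and the second, Gbp6 (306 TPM), lie in different clusters, and the spans of Gbp8, Gbp9 and Gbp4 overlap.

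The genes beside the clusters had lower levels. On chromosome 3 the nearest protein-coding neighbours were Pdlim5 (28.1 ± 6.80 TPM) on the left and Kyat3 (0.687 ± 0.473 TPM) on the right. On chromosome 5 they were Abcg3 (5.22 ± 1.46 TPM) on the left and Lrrc8b (3.01 ± 0.757 TPM) on the right. Each of these 4 lay below the member nearest to it, which is Gbp5, Gbp2, Gbp8 and Gbp11 in the order given.

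Several members share their place in the genome with another annotated gene. Gbp8, Gbp9 and Gbp4 overlap on the minus strand and begin at 105139540, 105139539 and 105139586, so that the Gbp9 span covers 61910 bases of Gbp8 and the Gbp4 span 23774. The gene Gm43302, annotated as protein-coding, covers the spans of Gbp10 and Gbp6 and had 1.62, 0.160 and 0 TPM in replicates 1, 2 and 3. The processed pseudogene Gm43802 inside Gbp7 had 372, 0 and 0 expected counts, or 58.5, 0 and 0 TPM, in the same libraries. Mir6381, on the strand opposite to Gbp2, had 112, 88.0 and 45.2 TPM in the read-based tables in replicates 1, 2 and 3, and 0 expected counts in the alignment-based ones. The sources used here do not give whether counting used the strand of the reads, and reads in overlapping stretches cannot be assigned with certainty.

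Coding sequences, taken from GENCODE M21, differed between the clusters in how much the genes resemble each other. The 15 chromosome 5 pairs were 90.0% to 98.4% identical over aligned coding bases, with a median of 90.9%. The 6 chromosome 3 pairs were 67.0% to 79.6% identical, with a median of 67.3%, and Gbp3 and Gbp7 were the closest of them. Pairs across the chromosomes had a median of 72.0%, and in these Gbp3 and Gbp7 were closer to every chromosome 5 member than to Gbp2 or Gbp5. Coding length ran from 1575 bases in Gbp8 to 1914 in Gbp7.

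**Figure D3:**
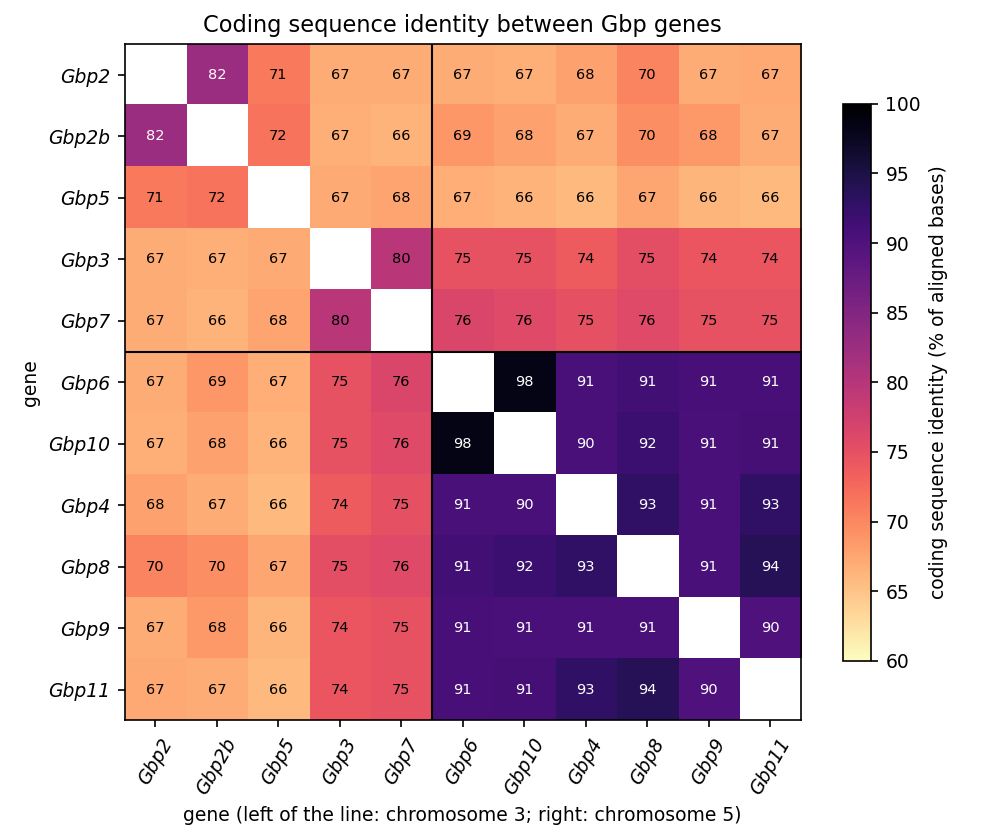
Identity of coding sequences between all pairs of the 10 members and Gbp2b, in percent of aligned bases, with lines that separate chromosome 3 from chromosome 5. The chromosome 5 block is dark throughout (90.0% to 98.4%), and Gbp6 with Gbp10 is its closest pair.

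Gbp6 and Gbp10, the member with the lowest mean level, are the closest pair in coding sequence. Over 1833 coding bases in each they are 98.4% identical. The 90-base stretch of coding sequence with the most differences, coding bases 1556 to 1645 of both, is shown to let the genes be compared where their coding sequences differ most, and capitals mark its 12 differing bases.
Gbp6: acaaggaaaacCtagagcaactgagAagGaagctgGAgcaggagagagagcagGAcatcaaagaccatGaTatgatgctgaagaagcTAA
Gbp10: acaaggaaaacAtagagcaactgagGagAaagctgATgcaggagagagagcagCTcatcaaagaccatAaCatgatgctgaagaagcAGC
Of the distinct 31-base words in its annotated transcripts, 89.8% of those of Gbp10 also occur in another gene, 80.8% in Gbp6 and 76.7% in Gm43302. For Gbp6 the share is 74.2%, mostly in Gm43302 (67.8%) and Gbp10 (51.4%). The other members of chromosome 5 share 14.3% to 34.3% of their words with another gene, and those of chromosome 3 share 3.05% (Gbp5) to 14.7% (Gbp7).

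Gbp10, with the most shared sequence, also had the least precise level. The deposited credible interval of Gbp10 ran from 22.0 to 39.6 TPM in replicate 1, from 1.11 to 4.44 TPM in replicate 2 and from 0.730 to 3.01 TPM in replicate 3. These widths are 57.2%, 133% and 132% of the posterior mean, and Gbp10 was also the member with the fewest counts (323.0, 88.49 and 52.95 expected counts in replicates 1, 2 and 3). Gbp6, with nearly as much shared sequence and many more counts, had widths of 3.15% to 4.03%. Sharing and count were not separated by any test.

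In replicate 1 nearly all of the Gbp10 level came from 1 short transcript. A retained-intron transcript of 703 bases held 93.5%, 0% and 31.1% of the gene's TPM in replicates 1, 2 and 3, and 225.0, 0 and 3.120 expected counts. Of its 31-base words, 91.1% occur in Gbp6. The protein-coding transcript of Gbp10 varied less, at 2.15, 1.5 and 0.910 TPM. By read-based quantification Gbp10 had 6.54, 2.79 and 2.01 TPM, still highest in replicate 1. The difference between the tables, read-based minus alignment-based, was -2.18, 0.60 and 0.37 in log2(TPM + 1) in replicates 1, 2 and 3, so the alignment-based value of replicate 1 is the 1 that stands apart.

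The other 9 members differed less between the tables, by at most 0.50 in log2(TPM + 1) on average. Gbp3, Gbp4 and Gbp2 were higher in the read-based tables in 3 of 3 libraries, by 0.50 ± 0.19, 0.39 ± 0.12 and 0.30 ± 0.16 in log2(TPM + 1) (SD, n = 3). Gbp8 was lower in 3 of 3 libraries, by -0.25 ± 0.11. Among members Gbp8 ranked 7 by mean read-based TPM and 3 by mean alignment-based TPM. The remaining 5 had mean differences between -0.17 and 0.07, with both signs among their libraries, and the median over protein-coding genes was 0.34. The exact two-sided sign-flip permutation test gave p = 0.25 for the first 4 genes, its smallest value (adjusted over the 10 members 0.625), so none passed. The family sum was 2496, 1226 and 1568 TPM in the read-based tables, or 1763 ± 657 TPM (SD, n = 3), against 1666 ± 505 TPM in the alignment-based ones.

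**Figure D4:**
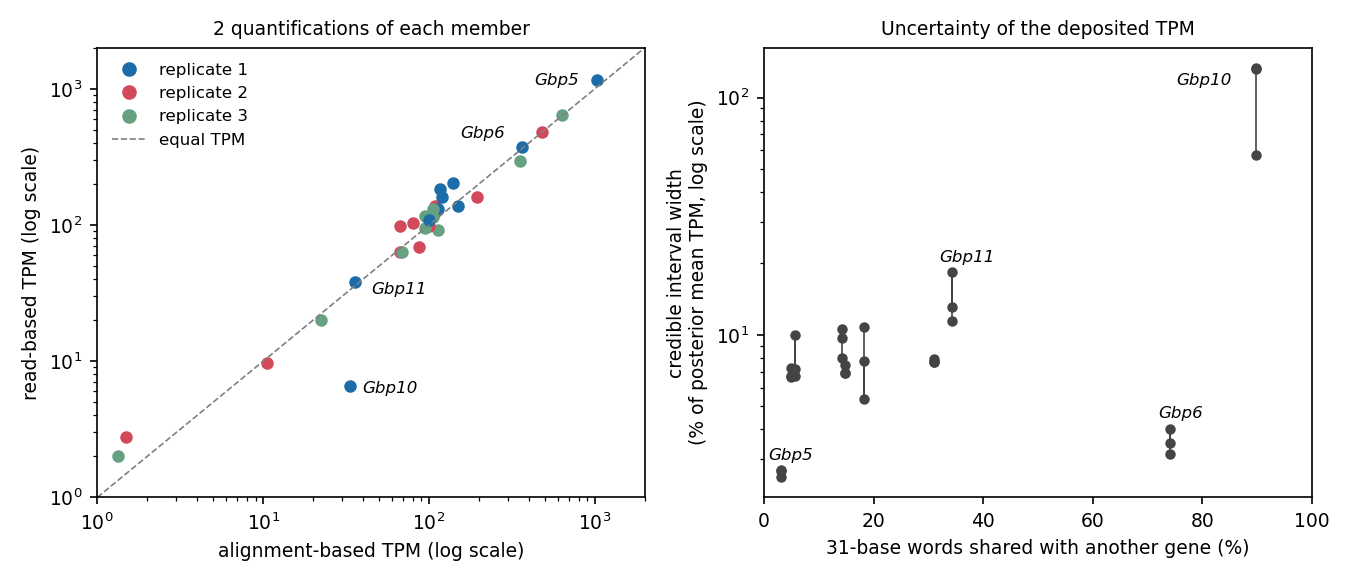
Left, read-based against alignment-based TPM of each member in each library (log axes, dashed line for equal values); right, the width of the deposited credible interval in percent of the posterior mean TPM (log axis) against the percent of 31-base words shared with another gene, with 1 point per library joined per gene. Most points lie near the line of equal values, and Gbp10 in replicate 1 (6.54 read-based, 33.2 alignment-based TPM) is far below it; Gbp10 also has the widest intervals.

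Gbp11 carries a coding sequence that is interrupted. Of its 619 codons, codon 443 is an in-frame stop, and no other member has one before its end. The codon is shown in capitals, with the bases around it, beside the matching stretch of Gbp8, its closest member at 93.8% identity, where codon 361 of 525 is at that place.
Gbp11: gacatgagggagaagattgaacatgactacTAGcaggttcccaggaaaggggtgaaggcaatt
Gbp8: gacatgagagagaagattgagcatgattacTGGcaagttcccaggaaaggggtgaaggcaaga
All of the Gbp11 TPM was assigned to the transcript annotated as a polymorphic pseudogene, and the shorter transcript annotated as protein-coding had 0 expected counts in all 3 libraries. RNA of the interrupted gene was thus present on chromatin at 22.8 ± 12.6 TPM, above Gbp10 in each of the 3 libraries. In replicate 1 the gap was small, 35.6 against 33.2 TPM. The credible intervals there overlapped, at 31.3 to 35.1 TPM for Gbp11 and 22.0 to 39.6 TPM for Gbp10.

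What kind of transcript held the signal differed between members. Chromatin-fraction RNA includes incompletely spliced molecules, and a retained-intron annotation takes up reads from the introns it keeps. Over the family, 44.2% ± 2.20 of TPM (SD, n = 3) was in transcripts annotated as protein-coding, 28.1% ± 3.93 in retained-intron transcripts and 21.7% ± 1.28 in transcripts annotated for nonsense-mediated decay. The median gene among 9440 expressed protein-coding genes had 56.7% in protein-coding transcripts, and the median of the 6106 with a retained-intron transcript had 43.9% in that type. These medians are of shares per gene. The family shares pool the TPM of all members, also those with no retained-intron transcript, so the values are not like for like.

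The chromosome 3 members Gbp2, Gbp3 and Gbp7 were almost wholly protein-coding by transcript type, with shares of 98.9% ± 0.219, 97.7% ± 0.714 and 100% (SD, n = 3), and have no annotated retained-intron transcript. Gbp5 does have 1, and divided into 39.8% ± 5.90 protein-coding, 34.6% ± 4.76 retained-intron and 24.6% ± 1.03 nonsense-mediated decay. Gbp9 was mostly retained-intron, with 70.1%, 74.7% and 57.6% in replicates 1, 2 and 3. Gbp4 had its largest share in the nonsense-mediated decay type (56.1%, 49.4% and 59.1% in replicates 1, 2 and 3), Gbp6 was split between that type (39.6% ± 3.52) and retained intron (36.7% ± 8.61), and Gbp8 had 56.6% ± 12.6 in a noncoding processed transcript. In replicate 1 the protein-coding share of Gbp8 (45.7%) was above that of its processed transcript (44.1%). Counting protein-coding transcripts alone, Gbp2, Gbp3 and Gbp7 followed Gbp5 in the order of means, and Gbp6 came after them with 75.9 ± 39.9 TPM (SD, n = 3). Gbp6 had 114, 34.5 and 79.1 TPM by this count in replicates 1, 2 and 3, which is above Gbp7 in replicates 1 and 3, so its place after Gbp7 rests on replicate 2.

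**Figure D5:**
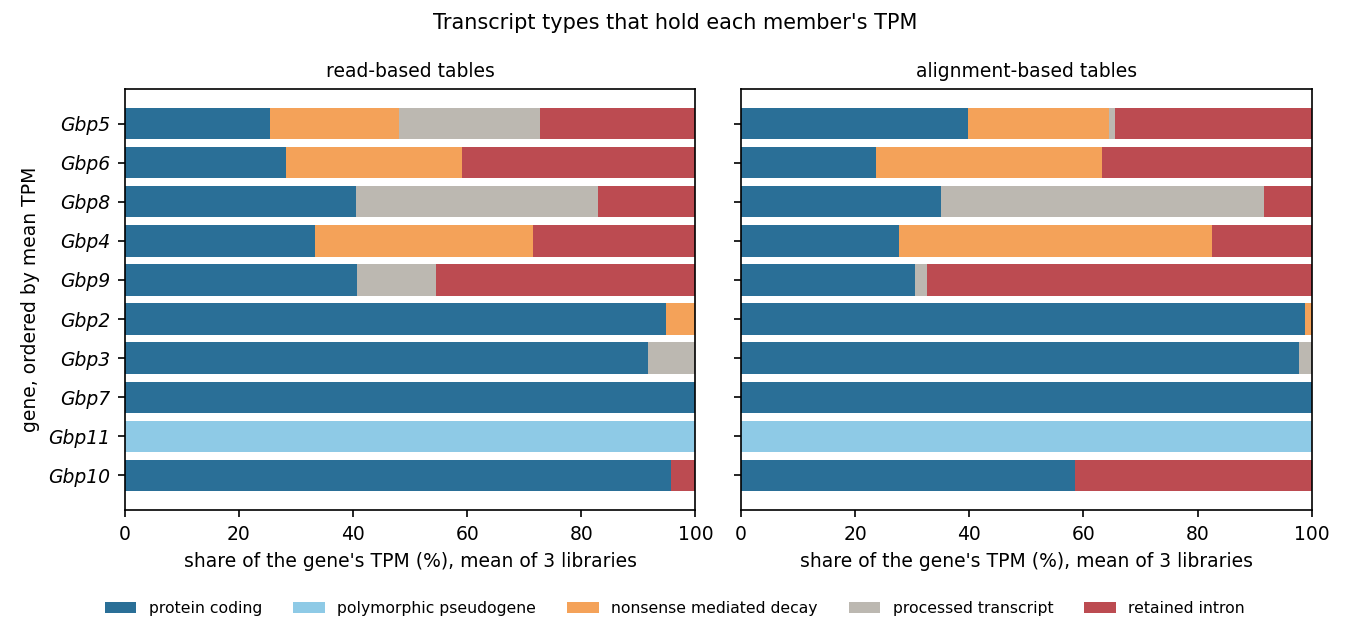
Share of each member's TPM by annotated transcript type (mean of 3 libraries, percent), from the read-based tables on the left and the alignment-based tables on the right. Gbp2, Gbp3 and Gbp7 are nearly all protein-coding in both, and Gbp9 has 45.4% retained intron in the read-based tables and 67.5% in the alignment-based ones.

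The types depended on the quantification for some members. In the read-based tables the protein-coding share was 25.5% ± 2.93 for Gbp5, 33.3% ± 3.32 for Gbp4 and 40.7% ± 4.97 for Gbp9, against 39.8%, 27.6% and 30.4% in the alignment-based ones. A processed transcript of Gbp5 took 24.6% ± 2.47 in the read-based tables and 1.05% ± 1.74 in the alignment-based ones. The nonsense-mediated decay share of Gbp4 was 38.2% ± 3.81 in the read-based tables, against 54.9% ± 4.96 in the alignment-based ones. The processed transcript of Gbp8 took 42.4% ± 14.9 in the read-based tables, close to its protein-coding share of 40.6% ± 10.9 there. For Gbp10 the retained-intron share was 4.18% ± 7.24 in the read-based tables, against 41.5% ± 47.6.

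The members shared their highest library but, by TPM, not their lowest. All 10 were highest in replicate 1, whether in TPM, in read-based TPM or in CPM scaled with TMM factors, while 21.9% of 9450 expressed protein-coding genes were highest there by TPM. Replicate 2 was the lowest library for 7 members and replicate 3 for the other 3, which are Gbp4, Gbp9 and Gbp10. The median member deviated from its own mean by 0.34, -0.44 and -0.06 in log2 in replicates 1, 2 and 3, against -0.12, 0.15 and -0.03 for the median protein-coding gene. The median coefficient of variation was 27.1% over members and 24.1% over those 9450 genes. Replicate 1 also had the largest starting amount and the lowest depth, and with 1 library each these cannot be told apart from other differences between libraries. The stromal and endothelial marker sum was highest there too, through Kdr alone (8.92, 2.27 and 2.01 TPM in replicates 1, 2 and 3). Col1a1, Col1a2, Pecam1 and Cdh5 were not highest there. The part of depth, amount or other cells in the members' order was not tested.

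Other GTPases known to work with the family were also highest in replicate 1. The 7 immunity-related GTPases, which mark vacuoles for attack together with the guanylate-binding proteins, were all detected and all highest in replicate 1, with sums of 685, 402 and 287 TPM in replicates 1, 2 and 3. Iigp1 was their highest, at 416, 238 and 163 TPM, and Tgtp1 the lowest, at 10.6, 3.94 and 1.19 TPM. By TPM, all of these immunity-related GTPases were lowest in replicate 3, as were Gbp4, Gbp9 and Gbp10, while the other members were lowest in replicate 2. The lowest library was not read with TMM factors, and the credible intervals of Gbp10 in replicates 2 and 3 overlapped. Among related large GTPases 6 of 7 were detected and 5 of 7 were highest in replicate 1. The share was 21.9% over protein-coding genes with a mean of at least 1 TPM, a set that leaves out Gbp2b, which is among the 5. Atl1 was highest there by little, at 4.73 TPM against 4.37 TPM in replicate 3. Whether the shares differ was not tested. Of the 5 genes highest in replicate 1, Mx2, Gvin1 and Atl1 had the library order of Gbp5 by TPM, and Mx1 and Gbp2b had that of Gbp4. The antiviral gene Mx1 led them at 1207 ± 257 TPM (SD, n = 3), above Gbp5, while Gbp2b was the 1 not detected.

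For the interferon pathway, RNA levels were read for 15 genes of interferons, receptors, kinases and factors. Of these 13 were detected, against 39.2% of all protein-coding genes. RNA levels do not measure secreted interferon or signalling. Irf1, a factor known to drive Gbp genes in mouse macrophages, was highest at 946, 663 and 734 TPM in replicates 1, 2 and 3. Stat2 stood at 461 ± 143 TPM (SD, n = 3). The 2 genes not detected were both interferons. Ifnb1, the early interferon of the Lipid A response, had 9.51, 0.560 and 4.21 TPM from 75, 5 and 35 expected counts, in the same order of libraries as Gbp5 and 6 other members, and whether it bears on their levels was not tested. Ifng, which macrophages scarcely make, had 0 expected counts in each library, which allows up to 3 counts in each. In this list 6 of 15 genes were highest in replicate 1 and 7 of 15 in replicate 2. Over expressed protein-coding genes the shares were 21.9% and 56.4%.

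RNA of the listed autophagy and inflammasome genes was detected throughout, while 39.2% of all protein-coding genes were detected. Their proteins were not measured. All 8 autophagy conjugation genes, whose products place these GTPases on vacuoles, were detected at lower levels, from Atg5 at 3.09 ± 0.666 TPM to Atg7 at 44.4 ± 5.50 TPM (SD, n = 3). None of the 8 was highest in replicate 1, where 21.9% of expressed protein-coding genes had their highest level. With 8 genes, the list is too small to tell these shares apart. Of the inflammasome genes downstream, 7 of 7 were detected, led by Nlrp3, the sensor that Gbp5 promotes, at 381, 357 and 607 TPM in replicates 1, 2 and 3. Casp4, which encodes mouse caspase-11, stood at 464, 235 and 316 TPM, and Pycard, the adaptor of the inflammasome, was lowest at 4.27 ± 1.01 TPM. Casp4 followed the library order of Gbp5, and Nlrp3, highest in replicate 3, did not.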

How the data were processed

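Ribosome-depleted total RNA of the chromatin fraction was sequenced in 3 libraries of 1 group, numbered as biological replicates in the labels. Per the file headers and accompanying text, the tables use mouse build mm10 with GENCODE M21, by programs not given in the sources used here. Expected counts, as deposited, are estimated counts per gene or transcript that can be fractional. TPM values, also deposited, sum to a fixed total per library. The deposited credible interval bounds belong to a posterior mean TPM, and their level is not given, so they are used as a score of precision. All 55536 identifiers matched the annotation.

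The members and lists were chosen with earlier results of these data known. All members, other Gbp symbols and, of each list, the counts, the highest, the lowest and undetected genes are named, with some further list members named after their values were seen. Differences between members were taken within libraries as log2(TPM + 1) and tested with an exact two-sided sign-flip permutation test. Expected counts were rounded to whole numbers for TMM factors (edgeR 4.0.16) and size factors (DESeq2 1.42.0) in R 4.3.3. The TMM factors used 13184 genes that passed a count filter, and the size factors used no such filter. No count test was run, with 1 group. Identity used Biopython 1.88 global alignments, with gapped columns left out. Scaling, sign-flip and sequence steps were tested on simulated data. Protein sequences were not used here. Depth, 13897176 to 19597343 expected counts, covers counting error only.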

Additional observations from a re-analysis of the deposited data

How the results depend on the processing

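The number of members detected was 9 at a threshold of 5 TPM and 10 under the other 5 settings tried, and the chromosome 3 cluster exceeded the chromosome 5 cluster under all 8. The summed level of the members moved with the unit: 4814 by CPM, 4906 by TMM-scaled CPM, 4782 with DESeq2 size factors, 5817 as TPM over protein-coding genes and 737 TPM over protein-coding transcripts alone; without 1 replicate it was 1399 to 1901 TPM. Among neighbouring pairs (log2), Gbp8 over Gbp4 turned to -0.63 in read-based TPM, -0.69 in CPM and -0.12 to 0.17 without 1 replicate. Gbp4 over Gbp9 turned to -0.34 in CPM, and Gbp3 over Gbp7 to -0.52. Gbp9 over Gbp2 turned to -0.21 in read-based TPM, -1.68 with protein-coding transcripts and -0.12 to 0.11 without 1 replicate. Gbp2 over Gbp3 turned to -0.10 in read-based TPM, and Gbp11 over Gbp10 to -1.30 with protein-coding transcripts, where the protein-coding transcript of Gbp11 had 0 counts. Read-based minus alignment-based levels changed sign without 1 replicate for Gbp9 (-0.01 to 0.12), Gbp7 (-0.10 to 0.02), Gbp11 (-0.12 to 0.00) and Gbp10 (-0.90 to 0.49). Beyond these, the cause was not tested. Of 72 pair settings 61 kept their direction. Gbp10 rested on 52.95 to 323.0 expected counts, with most of its sequence shared. No paired analysis was possible because the samples form 1 group, with no second group to pair across; differences between members were taken within libraries.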
